A study of Mus musculus with 24 samples.

Results

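The comparison described here set cultured myotubes of mdx mice against cultured fibroblasts of mdx mice, both from the vehicle arm, across all genes. Its members were chosen by the columns of the deposited count table: 3 myotube libraries and 3 fibroblast libraries, 6 of the 24 libraries of the series. The other 18 libraries were C57 cells and aldosterone-treated arms of the same design, and were used only where a difference from this contrast was tested.

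The cells were primary cells from hindlimbs of neonatal mice under 5 days old of the strain C57BL/10-Dmdmdx, which carries a mutation of Dmd, the gene of dystrophin. All 6 libraries therefore share the Dmd mutation. Myotubes were grown from myoblasts in F10 medium with horse serum, differentiated, given 0.001% DMSO for 48 h and then fresh medium for 15 h, and lysed. Fibroblasts were kept in DMEM with fetal bovine serum and received for 24 h the medium that vehicle-treated mdx myotubes had conditioned over those 15 h. Both cell types were in medium with charcoal-stripped horse serum when treated, which removes steroids. Cell type, culture medium and time in culture differed together, so they cannot be told apart, and the fibroblasts had received products of myotubes. The C57 cultures (strain C57BL/10) were handled alike, and the aldosterone arm received 1 µM aldosterone in place of vehicle on the myotubes. The labels number the libraries of a group as biological replicates 1 to 3 and do not say how many animals each holds, so p-values measure the spread between these cultures.

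Myotubes are the multinucleate cells that form when myoblasts leave the cell cycle and fuse. They assemble sarcomeres, in which myosin of the thick filament pulls on actin of the thin filament, and a membrane system that turns a nerve signal into calcium release. Muscle fibroblasts make the collagens, proteoglycans and remodelling enzymes of the connective tissue around the fibres, and respond to growth factors such as TGF-beta and PDGF. In mdx muscle, loss of dystrophin weakens the link between the fibre's cytoskeleton and that matrix, and the muscle becomes fibrotic with age.

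Levels are given as CPM (counts scaled to a common size by the TMM-adjusted library total), in the order of replicates 1, 2 and 3. A difference is the log2 value of myotubes minus fibroblasts with its standard error. A gene was called at an adjusted p below 0.05 in edgeR's quasi-likelihood test, and called beyond 2-fold where the test of a difference above 2-fold also passed. Library totals ran from 14133165 to 30167246 counts in myotubes and from 16964960 to 42698139 in fibroblasts. A count of 0 allows up to 3 counts, which corresponds to between 0.104 and 0.237 CPM in the myotube libraries and between 0.0655 and 0.161 CPM in the fibroblast libraries, for counting error only. In these bulk libraries, fewer cells of a type and less RNA per cell cannot be told apart.

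The labelled cell types were checked against their markers first. Acta1, the actin of the skeletal thin filament (chromosome 8, 124618508 to 124621490, mm39), lay at 9772, 9525 and 11456 CPM in the myotube libraries and 10.5, 9.72 and 21.2 CPM in the fibroblast libraries. Myh3, embryonic myosin heavy chain (chromosome 11, 66969126 to 66993117), lay at 3789, 4657 and 5624 CPM in the myotube libraries and 0.646, 1.38 and 2.96 CPM in the fibroblast libraries. Myh7, slow myosin heavy chain (chromosome 14, 55208141 to 55232083), lay at 1918, 2059.5 and 2727 CPM in the myotube libraries and 0.108, 0.459 and 1.5 CPM in the fibroblast libraries. Col1a1, the alpha 1 chain of collagen I (chromosome 11, 94827050 to 94843868), lay at 768, 2124 and 859 CPM in the myotube libraries and 9758, 7791 and 7561 CPM in the fibroblast libraries. Pdgfra, the PDGF receptor alpha that marks interstitial fibroblasts (chromosome 5, 75312953 to 75358876), lay at 15.1, 18.4 and 12.4 CPM in the myotube libraries and 436, 408 and 439 CPM in the fibroblast libraries. The groups did not overlap for any of these 5 genes, nor for 75.1% of all genes tested. All 10 myotube markers tested were higher in myotubes, and 10 of 11 fibroblast markers tested were higher in fibroblasts. The exception was Twist2, at 2.32, 4.79 and 1.81 CPM in myotubes against 4.36, 4.57 and 4.77 CPM in fibroblasts, which was called higher in fibroblasts without myotube library 2 (log2 difference -1.10), and the fibroblast markers Tcf21 and Pi16 did not pass the filter on low counts.

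Each culture held transcripts of the other type. The 13 fibroblast markers summed to 1293, 3652 and 1336 CPM in the myotube libraries and 17188, 14897 and 14398 CPM in the fibroblast libraries. Myotube library 2 held the most fibroblast marker RNA of its group, and also the most macrophage marker RNA, at 53.1 CPM against 9.92 and 23.1 CPM in the other myotube libraries and 12.5 to 15.6 CPM in fibroblasts. Ptprc, Adgre1, C1qa and Itgam, defining genes of leukocytes and macrophages, did not pass the filter but were present in myotube library 2: Adgre1 lay at 0, 2.28 and 0.946 CPM in myotubes and 0, 0.0655 and 0 CPM in fibroblasts, and Ptprc at 0, 0.989 and 0 CPM in myotubes and 0, 0 and 0.0385 CPM in fibroblasts. Of 7 macrophage and leukocyte markers tested, 3 were called higher in myotubes and 1 in fibroblasts, with a median log2 difference of -0.50. With no filter on low counts, 11 were higher in myotubes and 2 in fibroblasts. Without myotube library 1, 6 were higher in myotubes. Without myotube library 2, 2 were higher in myotubes and 3 in fibroblasts. The myotube markers summed to 23018, 24275 and 30038 CPM in the myotube libraries and 13.4, 17.1 and 38.8 CPM in the fibroblast libraries, so fibroblast library 3 held the most of its group. Satellite cell and myoblast markers summed to 778, 681 and 735 CPM in the myotube libraries and 517, 538 and 688 CPM in the fibroblast libraries. These sums overlapped, and of 9 members tested 7 were higher in myotubes and 2 in fibroblasts. Pax7, the transcription factor of muscle stem cells, lay at 11, 5.94 and 10.9 CPM in myotubes against 0, 0 and 0.192 CPM in fibroblasts. Tendon and cartilage markers summed to 251, 364 and 368 CPM in the myotube libraries and 2496, 1701 and 2138 CPM in the fibroblast libraries, with 10 of 11 tested members higher in fibroblasts. Endothelial markers summed to 83.1, 84.4 and 107 CPM in the myotube libraries and 20.2, 18.2 and 16.6 CPM in the fibroblast libraries, with 6 of 11 tested members higher in myotubes and 2 in fibroblasts. Prox1, Emcn and Cdh5 (VE-cadherin) were among the 6, Cdh5 at 8.02, 11.3 and 12.8 CPM in myotubes against 0.0538, 0.0655 and 0.077 CPM in fibroblasts. Of the other defining genes of endothelium, Kdr, Tie1 and Cldn5 lay under 1 CPM in every library. The part of these cells in the differences below was not tested.

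**Figure D1:**
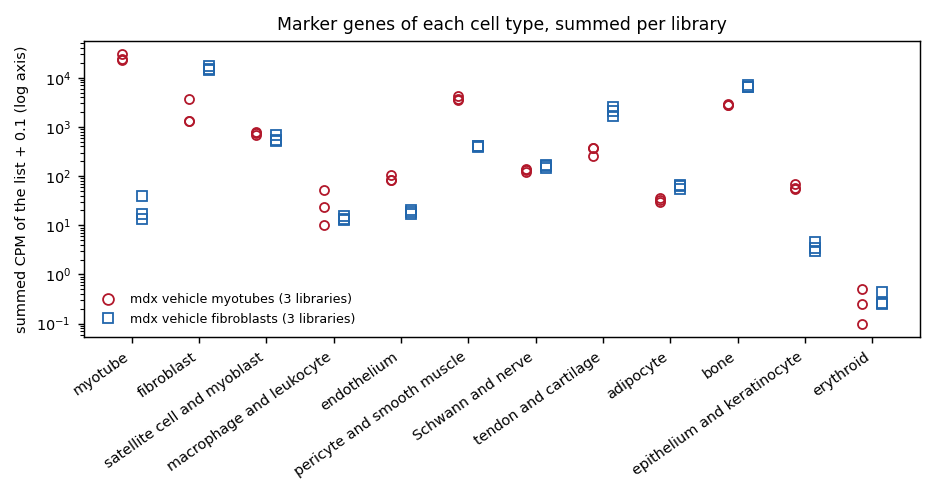
Summed CPM of 12 lists of cell type markers in each library, on a log axis with 0.1 added. Circles are the 3 mdx vehicle myotube libraries and squares the 3 mdx vehicle fibroblast libraries. The myotube and fibroblast lists separate the groups, and 1 myotube library lies above the other two for the fibroblast list.

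The transcripts of the sex chromosomes fell by replicate number, which the labels do not mention. Xist, the RNA that silences an X chromosome in female cells, lay at 509.5, 0.152 and 814 CPM in myotubes against 1306, 0.175 and 1118 CPM in fibroblasts, so it was near 0 in replicate 2 of both cell types. Ddx3y, a gene of the Y chromosome, lay at 0, 117 and 0 CPM in myotubes and 0.106, 91.2 and 0 CPM in fibroblasts, scaled over the 12 vehicle libraries, with the opposite pattern. Each cell type thus had 1 library with Y-linked and without Xist transcripts and 2 of the reverse kind. Myotube library 2, which held the most fibroblast markers, was the one with Y-linked transcripts. Ddx3y was named after its values were seen.

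Of 15807 genes tested, 11103 were called (70.2%): 5596 higher in myotubes (35.4%) and 5507 higher in fibroblasts (34.8%). Beyond 2-fold, 2125 were higher in myotubes (13.4%) and 1938 in fibroblasts (12.3%). The groups did not overlap in 75.1% of genes. The cell type was the main axis of variation: the leading principal component held 92.4% of the variance, and log-scale correlations were at least 0.9797 within a cell type and at most 0.801 between them. The split depended on scaling. When libraries were scaled by their totals alone, 39.4% of the called genes were higher in myotubes in place of 50.4%, and the median over all genes moved from -0.01 to -0.22. Mitochondrially encoded genes took between 6.23% and 7.18% of the counts in myotubes and between 1.58% and 1.76% in fibroblasts. Counts of list members are read below against 35.4% and 34.8%, and groups that do not overlap against 75.1%.

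**Figure D2:**
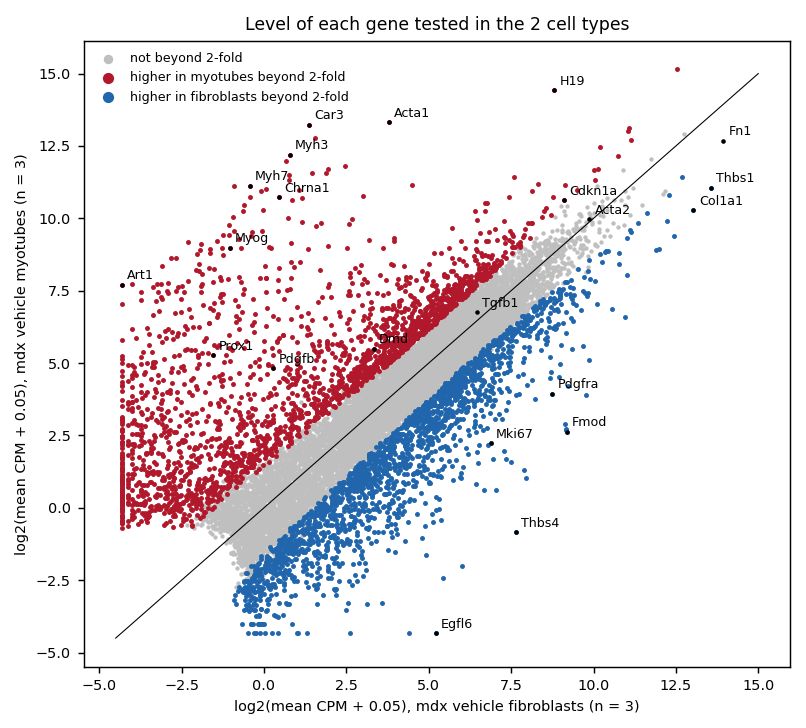
Mean level of each of 15807 genes in fibroblasts (horizontal) and myotubes (vertical), both as log2(CPM + 0.05), n = 3 libraries each, with the line of equality. Red genes were higher in myotubes beyond 2-fold and blue genes higher in fibroblasts beyond 2-fold. Acta1, Myh3 and Car3 lie far above the line, and Col1a1, Thbs1 and Fn1 lie below it at high levels in both cell types.

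Sarcomere genes were almost all far higher in myotubes. Of 20 myosin and thick filament genes tested, 19 were higher in myotubes, with a median log2 difference of 9.85 against -0.01 over all genes. All 18 thin filament genes tested and 21 of 22 Z-disc and titin genes were higher in myotubes, and none of either list in fibroblasts. The myosin heavy chains of development led: in CPM per kilobase of gene length, Myh3 and Myh8 (perinatal) stood at 774 and 599.8, above the slow Myh7 at 259. The adult fast chains were lower per kilobase, at 119 for Myh1 (2X), 96 for Myh4 (2B) and 12.7 for Myh2 (2A). The cardiac alpha chain Myh6 was lower, at 0.869. Myh3, Myh2, Myh1, Myh4 and Myh8 lie next to each other on chromosome 11, from 66969126 to 67199460. These are near-identical copies, so reads shared between them are uncertain.

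Myh8 had 4824, 7100.3 and 9258 CPM in the myotube libraries and 0.108, 2.4 and 6.2 CPM in the fibroblast libraries. Myh2 had 41.7, 111 and 119.7 CPM in the myotube libraries and 1.13, 1.07 and 1.69 CPM in the fibroblast libraries. In Myh3, Myh2, Myh4 and Myh8 the lowest myotube value was in library 1, and in all 5 chains of the cluster every myotube value exceeded every fibroblast value. Ttn, the giant spring of the sarcomere, had 2415, 2855 and 4805 CPM in the myotube libraries and 1.99, 2.03 and 7.28 CPM in the fibroblast libraries, a log2 difference of 9.81 ± 0.65. Neb, the ruler of the thin filament, differed by 10.13 ± 0.45. The cardiac actin Actc1 and the skeletal actin Acta1 differed by 12.21 ± 0.64 and 9.54 ± 0.40. Their coding sequences are nearly the same, so the split between them is uncertain. Lmod3, a leiomodin that nucleates actin filaments, differed by 12.14 ± 0.34. Its relative Lmod2 lay at 169.5, 201 and 269 CPM in myotubes against 0, 0 and 0.0385 CPM in fibroblasts. Adjusted p-values of these genes lay between 4.58e-08 and 1.36e-05. The smallest thin filament difference was that of Tpm3, a tropomyosin found in many cells, at 0.69 ± 0.15. Synm, an intermediate filament protein of the Z-disc, was not called, at 15.1, 25.1 and 30.9 CPM in myotubes against 29.2, 22.6 and 25.1 CPM in fibroblasts. Mylk2, skeletal myosin light chain kinase, was the 1 member higher in fibroblasts, at 8.16, 8.45 and 11.4 CPM in myotubes against 11.4, 14.8 and 15.9 CPM in fibroblasts, 1 of 2 called genes named with values whose groups overlapped (the other was Lyz2), and its call was lost when fibroblast library 2, fibroblast library 3 or myotube library 1 was left out. Tnnc2, fast troponin C, did not pass the filter, at 0.0691, 0.0761 and 0.237 CPM in myotubes and 0, 0 and 0 CPM in fibroblasts.

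Genes that couple membrane voltage to calcium release were higher in myotubes as a list. Of 23 tested, 22 were higher in myotubes and 1, Asph, in fibroblasts. Cacna1s, the voltage sensor, lay at 406, 481 and 601 CPM in the myotube libraries and 0.161, 0.109 and 0.539 CPM in the fibroblast libraries. Ryr1, the release channel that it opens, lay at 1156, 1525 and 2086 CPM in the myotube libraries and 0.269, 1.62 and 3.35 CPM in the fibroblast libraries. Per kilobase, Ryr1 was 72.8 in myotubes and the related Ryr3 2.12. The calcium pumps differed in their pattern: Atp2a1, the fast-muscle pump, had a log2 difference of 10.05 ± 0.63, and Atp2a2, which many cells use, 1.76 ± 0.16. Sln, sarcolipin, a small inhibitor of these pumps, lay at 46.6, 125 and 225 CPM in the myotube libraries and 0, 0 and 0 CPM in the fibroblast libraries and was at least 1157-fold higher in myotubes, against a floor of 3 counts per library. It was lowest in myotube library 1. Among 13 ion channel genes, 12 were higher in myotubes and 1 was not called. Scn4a, the adult muscle sodium channel, had 57, 68.5 and 98.7 CPM in myotubes against 0, 0.0655 and 0.0385 CPM in fibroblasts. Clcn1, the chloride channel of mature muscle, was low in both, at 1.83, 3.8 and 7.41 CPM in myotubes against 0.323, 0.284 and 0.539 CPM in fibroblasts.

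Genes of the postsynaptic side of the nerve-muscle junction were higher in myotubes as a list too. Of 14 tested, 13 were higher in myotubes. The acetylcholine receptor subunits Chrna1, Chrnd and Chrng had log2 differences of 10.31 ± 0.46, 10.73 ± 0.54 and 10.17 ± 0.54. Chrng, the subunit of the embryonic receptor, lay at 612, 570.5 and 678 CPM in the myotube libraries and 0.0538, 0.262 and 1.31 CPM in the fibroblast libraries. Chrne, the subunit that replaces it in adult muscle, lay at 4.63, 3.35 and 6.23 CPM in the myotube libraries and 0.215, 0.109 and 0.077 CPM in the fibroblast libraries. Per kilobase, Chrng stood at 149 and Chrne at 2.8 in myotubes. Musk, the receptor kinase that gathers the receptors, and Rapsn, which anchors them, differed by 8.79 ± 0.28 and 7.42 ± 0.18. Agrn, the agrin that activates Musk, was the exception: it was higher in fibroblasts, at 78.8, 69.5 and 71.1 CPM in myotubes against 98.8, 96.7 and 92.6 CPM in fibroblasts.

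Promoters of 3 of these muscle genes are shown because each holds a motif of the muscle programme within the 250 bases before the start site, with the match in capitals. The sequences are from RefSeq on GRCm38.p6, read 5′ to 3′ on the gene's strand, Chrna1 from chr2:73580339-73580588 (minus strand), Chrng from chr1:87205561-87205810 (plus strand) and Actc1 from chr2:114052876-114053125 (minus strand). Capitals mark the E-box CAGCTG, which myogenic bHLH factors such as MyoD and myogenin bind, in Chrna1 and Chrng, and the CArG box, which serum response factor binds, in Actc1.
Chrna1: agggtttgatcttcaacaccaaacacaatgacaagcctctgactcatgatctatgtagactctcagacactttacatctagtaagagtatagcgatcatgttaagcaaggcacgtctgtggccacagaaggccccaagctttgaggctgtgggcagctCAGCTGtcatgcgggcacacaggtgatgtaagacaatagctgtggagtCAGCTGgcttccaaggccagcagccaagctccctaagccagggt
Chrng: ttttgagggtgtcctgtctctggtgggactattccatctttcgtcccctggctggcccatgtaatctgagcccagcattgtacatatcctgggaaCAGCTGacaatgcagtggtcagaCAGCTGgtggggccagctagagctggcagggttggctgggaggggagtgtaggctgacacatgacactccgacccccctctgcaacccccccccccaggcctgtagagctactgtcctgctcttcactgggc
Actc1: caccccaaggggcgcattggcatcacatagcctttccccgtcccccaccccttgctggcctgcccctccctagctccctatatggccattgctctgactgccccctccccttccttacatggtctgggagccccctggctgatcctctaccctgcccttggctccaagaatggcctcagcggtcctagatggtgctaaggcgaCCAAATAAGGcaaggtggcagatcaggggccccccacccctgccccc

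The E-box matches began 92 and 44 bases before the start site of Chrna1 and 155 and 132 bases before that of Chrng, and the CArG match 47 bases before that of Actc1. Over the table of 32851 promoter windows, 13% held CAGCTG (searched on both strands, where it reads the same), 2.92% a MEF2 box and 1.47% a CArG box. Among genes higher in myotubes beyond 2-fold the shares were 17.1%, 3.86% and 1.73% of 1967 windows. Among genes higher in fibroblasts beyond 2-fold they were 13.3%, 1.8% and 1.86% of 1666 windows. Genes tested and not called had 11.5%, 1.27% and 1.4%. The 57 windows of the sarcomere lists held them in 33.3%, 17.5% and 12.3%. These shares were not tested, a match is not a bound site, and 113 windows of the table had matches of 2 different motifs that shared bases. Promoters were matched by symbol for 11190 of 15803 symbols tested.

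The dystrophin complex anchors the fibre's cytoskeleton to the matrix, and its members differed in direction. Of 22 tested, 15 were higher in myotubes and 4 in fibroblasts. Dmd itself (chromosome X, 81992476 to 84249747) was low in both cell types of these mutant mice, at 36, 42.2 and 57.7 CPM in the myotube libraries and 12.4, 8.65 and 8.89 CPM in the fibroblast libraries, a log2 difference of 2.19 ± 0.21 (adjusted p = 2.27e-05). In C57 vehicle cells Dmd lay at 457, 362 and 388 CPM in myotubes and 23.1, 29.2 and 30 CPM in fibroblasts, which matches the genotype labels. The reads do not show whether dystrophin protein was made. Utrn, utrophin, the close relative of dystrophin in many cells, lay at 278, 270.1 and 330.5 CPM in the myotube libraries and 232, 222 and 223 CPM in the fibroblast libraries, a log2 difference of 0.38 ± 0.10. Dmd transcripts made up 9.92% ± 1.32 in myotubes and 3.07% ± 0.552 in fibroblasts of the sum of Dmd and Utrn per kilobase. All Dmd reads were divided by 1 gene length, 23801 bases, whichever transcript they came from. The sarcoglycans divided: Sgca, found in striated muscle, differed by 7.48 ± 0.14, Sgcb by 1.64 ± 0.12 and Sgcd by 0.54 ± 0.16. The calls of Utrn and Sgcd were lost with library totals, and that of Sgcd without fibroblast library 3. Sgce, the epsilon form of other cells, was higher in fibroblasts, at 16, 21.2 and 12.5 CPM in myotubes against 53.9, 53.5 and 57.2 CPM in fibroblasts. The syntrophin Sntb1 was higher in myotubes (6.87 ± 0.24) and its relative Sntb2 in fibroblasts (-1.33 ± 0.11). Dtna and Dtnb, the dystrobrevins, parted in the same way, at 4.50 ± 0.19 and -1.55 ± 0.18. Adjusted p-values of the genes called here lay between 2.05e-08 and 0.0138.

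Most regulators that set up muscle were higher in myotubes. Of 20 tested, 15 were higher in myotubes and 4, Hmga2, Id2, Vgll3 and Id3, in fibroblasts. The bHLH factors Myod1 and Myog, which switch on muscle genes, were near 0 in fibroblasts: Myod1 lay at 315, 250.1 and 304 CPM in myotubes against 0, 0.153 and 0.462 CPM in fibroblasts. Myog lay at 569, 432 and 512 CPM in myotubes against 0.108, 0.0437 and 1.15 CPM in fibroblasts. Myf5, the factor of early myoblasts, lay at 52.6, 53.6 and 61.4 CPM in myotubes against 0, 0 and 0 CPM in fibroblasts, at least 489.5-fold higher in myotubes. Myf6, the late factor, lay at 130.5, 175 and 220.1 CPM in myotubes against 0, 0 and 0.077 CPM in fibroblasts. Mef2c, which works with them, differed by 6.64 ± 0.29, and the widely expressed Mef2a by 0.98 ± 0.11. The inhibitors of bHLH factors Id2 and Id3 were higher in fibroblasts, with differences of -0.98 ± 0.14 and -0.35 ± 0.11. The call of Id3 was lost without fibroblast library 2 or myotube library 3. Mymk, a membrane protein that fuses myoblasts, lay at 358, 304 and 364 CPM in myotubes against 0, 0 and 0.616 CPM in fibroblasts. Mymx, its small partner, lay at 36.5, 16.5 and 23.8 CPM in myotubes against 0, 0.0437 and 0 CPM in fibroblasts. Among 15 fusion genes tested, 10 were higher in myotubes, and Elmo1, Dock1, Myof and Dock5, parts of general membrane and Rac pathways, were higher in fibroblasts. The call of Dock5 was lost without fibroblast library 2. The ubiquitin ligases of muscle wasting, Trim63 and Fbxo32, differed by 8.39 ± 0.18 and 2.72 ± 0.15, among 15 of 18 atrophy genes higher in myotubes.

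Muscle genes often differed from a general relative of the same family. In 31 pairs of a muscle gene and its general relative, the muscle member was higher in myotubes in 26, the general member was higher in fibroblasts in 20, and both held in 18. The muscle member made up more than 50% of the pair per kilobase in 23 pairs in myotubes and in 3 in fibroblasts. The enolase Eno3 made up 85.1% ± 6.26 in myotubes and 1.58% ± 0.238 in fibroblasts of the sum with Eno1. Pygm, muscle glycogen phosphorylase, made up 97.2% ± 1.04 in myotubes and 2.83% ± 0.679 in fibroblasts of the sum with Pygb, the brain form. Des, desmin, made up 69.2% ± 7.36 in myotubes and 0.149% ± 0.098 in fibroblasts of the sum with vimentin, Vim. Actn2 made up 81.6% ± 4.99 in myotubes and 0.121% ± 0.134 in fibroblasts of the sum with Actn1. Fabp3, the muscle fatty acid binding protein, made up 99.2% ± 0.112 in myotubes and 39.1% ± 4.13 in fibroblasts of the sum with Fabp5. Slc25a4, the mitochondrial ATP carrier of muscle, was nearer to its relative Slc25a5 already in fibroblasts, at 69.9% ± 4.38 in myotubes and 53.6% ± 0.689 in fibroblasts of their sum.

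In 5 pairs the muscle member was not called higher in myotubes, among them that of Mylk2, above. Eef1a2, the elongation factor that replaces Eef1a1 in mature muscle, was lower in myotubes, at 2.14, 5.25 and 7.73 CPM in the myotube libraries and 60.4, 42.1 and 82.8 CPM in the fibroblast libraries, a log2 difference of -3.72 ± 0.42 (adjusted p = 6.64e-05). Eef1a1 lay at 3067 per kilobase in myotubes and 2738 in fibroblasts, and was not called. Rpl3l, the muscle form of a ribosomal protein, and Cpt1b, the muscle carnitine palmitoyltransferase, did not pass the filter and so were not tested. Rpl3l lay at 0.449, 1.22 and 2.21 CPM in myotubes against 0, 0.0437 and 0 CPM in fibroblasts. Cpt1b lay at 0.104, 0.152 and 0.394 CPM in myotubes against 0.0538, 0.109 and 0.0385 CPM in fibroblasts. Mbnl1, a splicing factor that rises in importance as muscle matures, was lower in myotubes, at 108, 125 and 130.4 CPM in myotubes against 324, 317 and 327 CPM in fibroblasts.

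**Figure D3:**
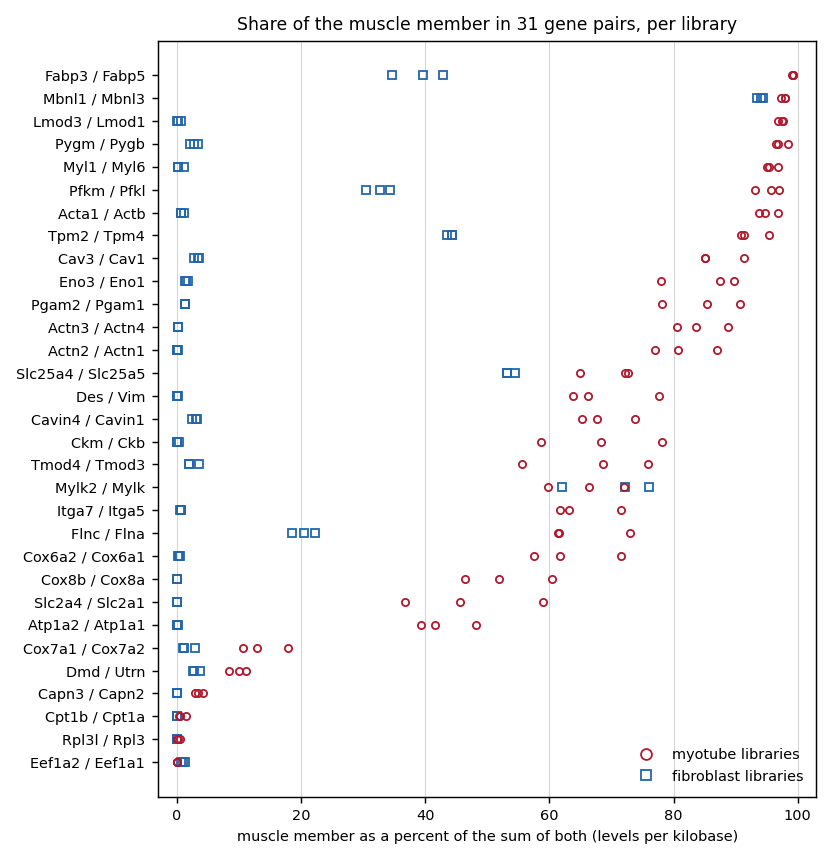
The muscle member as a percent of the summed level per kilobase of 31 gene pairs (muscle gene / general gene), in each of the 3 myotube libraries (circles) and 3 fibroblast libraries (squares). In 29 pairs every myotube library lies above every fibroblast library, and for Eef1a2 / Eef1a1 every myotube library lies below. Of single genes tested, 75.1% did not overlap, counted in either direction. For Eno3 the mean is 85.1% in myotubes and 1.58% in fibroblasts.

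Within glycolysis, 14 of 33 genes tested were higher in myotubes and 13 in fibroblasts. The muscle forms Pfkm, Pgam2 and Eno3 differed by 3.95 ± 0.17, 7.42 ± 0.20 and 7.80 ± 0.22, while the general forms Pfkl, Pgam1 and Eno1 differed by -1.53 ± 0.15, -1.29 ± 0.19 and -0.75 ± 0.19. The glucose carriers differed in direction. Slc2a4, which insulin moves to the surface of muscle, had 50, 56.8 and 76.7 CPM in myotubes against 0.0538, 0.0437 and 0.231 CPM in fibroblasts. Slc2a1, the carrier of most cells, had 86.7, 68.4 and 53.7 CPM in myotubes against 174, 218 and 235 CPM in fibroblasts. Respiratory genes were higher in myotubes throughout. Of 38 nuclear genes of oxidative phosphorylation, 37 were higher in myotubes, 33 of them beyond 2-fold, and 1 was not called. Atp5b, the catalytic subunit of ATP synthase, lay at 1987, 1892 and 2222 CPM in the myotube libraries and 698, 722 and 753 CPM in the fibroblast libraries, a difference of 1.49 ± 0.11. All 13 protein-coding genes of the mitochondrial genome were higher in myotubes. The most abundant, mt-Co1, a subunit of cytochrome oxidase, lay at 35529, 33296 and 40408 CPM in the myotube libraries and 5589, 6357 and 5766 CPM in the fibroblast libraries. Several mitochondrial genes had far fewer counts (mt-Co2 lay at 87.8, 53.3 and 155 CPM in myotubes against 13.9, 34.4 and 17.8 CPM in fibroblasts), and reads shared with nuclear copies are uncertain. Ppargc1a and Ppargc1b, coactivators of mitochondrial genes, differed by 2.31 ± 0.28 and 4.63 ± 0.23. Mb, myoglobin, lay at 1406, 1637 and 2089 CPM in myotubes against 0.108, 0.371 and 1.62 CPM in fibroblasts. Ckm, muscle creatine kinase, lay at 121, 150.2 and 243 CPM in myotubes against 0.0538, 0.0437 and 0.154 CPM in fibroblasts.

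In lipid metabolism, genes of uptake and use were often higher in myotubes: Cd36, the fatty acid transporter, lay at 126, 136 and 183 CPM in myotubes against 0.753, 2.25 and 1.46 CPM in fibroblasts. Pdk4, the kinase that diverts pyruvate, lay at 514, 496 and 754 CPM in myotubes against 67.5, 51.1 and 72.3 CPM in fibroblasts. Of 26 genes of fatty acid use tested, 15 were higher in myotubes and 7 in fibroblasts. Plin4 and Fabp4, genes of fat droplets and fat cells, differed by -4.12 ± 0.20 and -3.17 ± 0.30. Cholesterol synthesis went the other way, with 18 of 22 genes higher in fibroblasts and 1 in myotubes. The exception was Dhcr7, the last step of cholesterol synthesis, at 68.5, 78.5 and 92.5 CPM in myotubes against 27, 19.9 and 22.2 CPM in fibroblasts, a log2 difference of 1.80 ± 0.15 (adjusted p = 9.79e-06). Of 43 ribosomal protein genes tested, 14 were higher in myotubes and 1 in fibroblasts, which became 3 and 5 when libraries were scaled by totals alone. The count of 14 became 8 without fibroblast library 1, without fibroblast library 2 or with upper quartile scaling. The count of 1 became 2 without myotube library 1 or 3.

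Transcripts of dividing cells were far higher in fibroblasts. All 34 genes of the mitosis list were higher in fibroblasts, 33 beyond 2-fold, with a median log2 difference of -3.56. Mki67, the antigen of cycling cells, lay at 8.16, 3.58 and 2.21 CPM in the myotube libraries and 98.4, 144 and 109.5 CPM in the fibroblast libraries. Ccnb1, the mitotic cyclin, lay at 3.25, 1.37 and 0.631 CPM in the myotube libraries and 25.1, 39.2 and 33.2 CPM in the fibroblast libraries. Cdk1, its kinase, lay at 13.6, 7.84 and 3.79 CPM in the myotube libraries and 55.8, 70.9 and 56.7 CPM in the fibroblast libraries. Myotube library 1 was the highest of the myotubes in all 34 genes, and in all 34 every myotube library lay below every fibroblast library. Over all genes tested, the groups did not overlap in 75.1%, counted in either direction. Of 35 replication genes tested, 29 were higher in fibroblasts and 1, E2f2, in myotubes. Mcm6, a helicase subunit, lay at 17.4, 6.62 and 6.47 CPM in myotubes against 62.2, 79.3 and 71 CPM in fibroblasts. Pcna, the clamp used in replication and repair, differed by only -0.40 ± 0.10. Cyclins of G1 differed from the mitotic genes. Ccnd1, cyclin D1, was not called, at 786, 584 and 456 CPM in myotubes against 583, 662 and 650.4 CPM in fibroblasts. Ccnd3, the cyclin kept in differentiated muscle, was higher in myotubes, at 263, 337 and 327 CPM in myotubes against 91.1, 97 and 88.7 CPM in fibroblasts. Cdkn1a, the inhibitor p21 that holds myotubes out of the cycle, lay at 1543, 1583 and 1646 CPM in the myotube libraries and 566, 521 and 549.7 CPM in the fibroblast libraries. Rb1, the retinoblastoma protein, lay at 114, 103 and 129 CPM in myotubes against 23.4, 24.1 and 22.7 CPM in fibroblasts. Not all inhibitors were higher in myotubes: Cdkn2c and Cdkn1b were higher in fibroblasts, with differences of -2.90 ± 0.17 and -0.60 ± 0.12. Of the 21 genes of cycle exit, 8 were higher in myotubes and 5 in fibroblasts, which became 7 and 9 with library totals.

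Promoters of 3 mitotic genes are shown because each holds the cell cycle genes homology region, TTTGAA on either strand, through which the DREAM complex and B-MYB act. Capitals mark it in the 250 bases before the start site, from RefSeq on GRCm38.p6: Cdk1 from chr10:69352913-69353162, Top2a from chr11:99024190-99024439 and Cdc20 from chr4:118437344-118437593, all on the minus strand.
Cdk1: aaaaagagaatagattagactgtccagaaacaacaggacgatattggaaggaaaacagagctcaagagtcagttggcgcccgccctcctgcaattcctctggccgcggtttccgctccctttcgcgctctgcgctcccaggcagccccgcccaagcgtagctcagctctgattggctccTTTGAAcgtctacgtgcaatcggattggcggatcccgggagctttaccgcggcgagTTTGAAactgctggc
Top2a: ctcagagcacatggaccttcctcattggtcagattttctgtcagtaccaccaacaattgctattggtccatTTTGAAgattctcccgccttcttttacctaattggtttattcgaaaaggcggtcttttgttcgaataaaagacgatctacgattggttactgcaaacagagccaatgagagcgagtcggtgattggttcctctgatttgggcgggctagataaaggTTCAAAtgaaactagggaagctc
Cdc20: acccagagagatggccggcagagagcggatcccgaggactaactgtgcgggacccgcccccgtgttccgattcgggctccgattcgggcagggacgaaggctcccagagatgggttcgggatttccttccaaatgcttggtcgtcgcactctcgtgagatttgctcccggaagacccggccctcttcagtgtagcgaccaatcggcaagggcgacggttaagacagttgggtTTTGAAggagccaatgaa

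The match nearest the start site began 15 bases before it in Cdk1, 23 in Top2a and 18 in Cdc20. TTTGAA was present in 12 of 30 windows of the mitosis list (40%), against 12.6% of the windows of all genes higher in fibroblasts beyond 2-fold and 16% of all windows. CCAAT on either strand, which the factor NF-Y binds, was in 23 of those 30 (76.7%), against 34.9% and 33.9%. These shares were not tested. Top2a, the topoisomerase that untangles chromosomes, lay at 10.6, 6.77 and 2.92 CPM in myotubes against 89, 126 and 111 CPM in fibroblasts. Cdc20, an activator of the anaphase-promoting complex, lay at 7.71, 5.02 and 2.92 CPM in myotubes against 40.8, 65.6 and 54.1 CPM in fibroblasts.

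**Figure D4:**
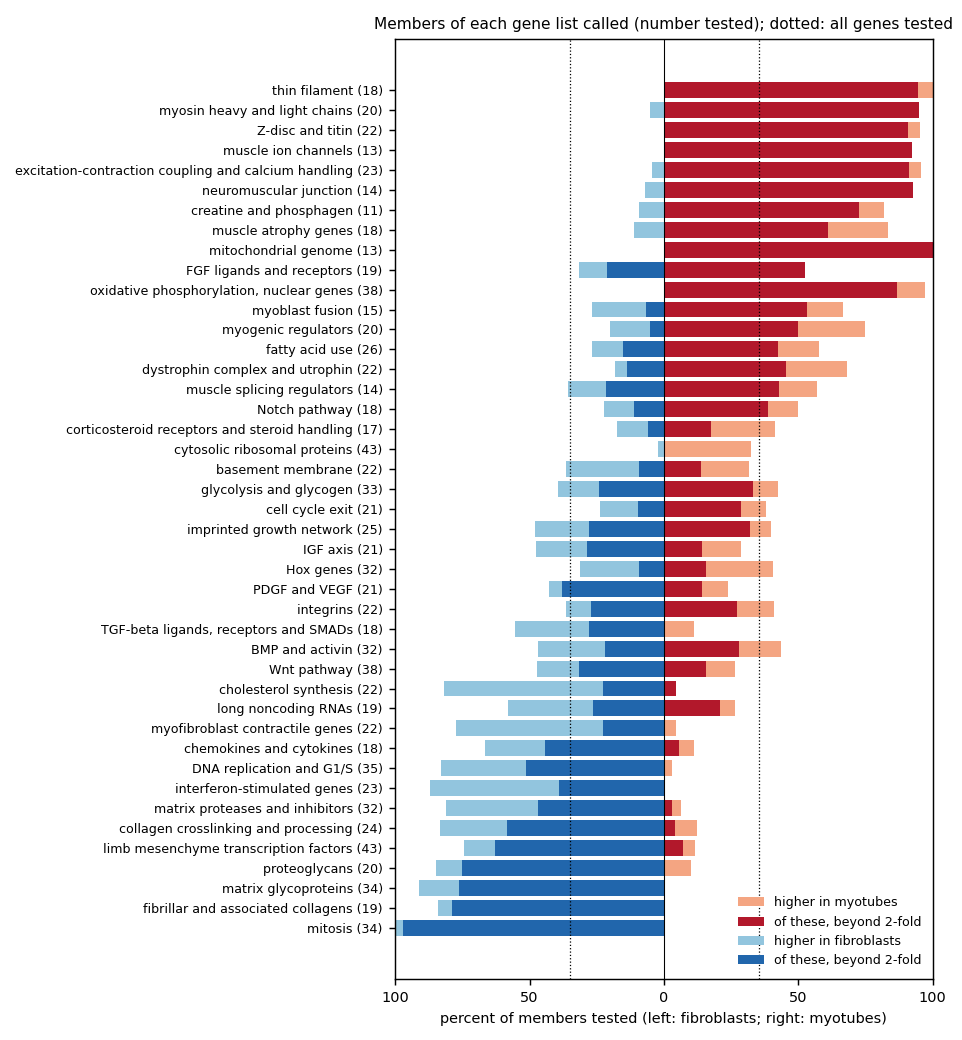
Percent of the tested members of 43 gene lists called higher in myotubes (right, red) or in fibroblasts (left, blue), dark where beyond 2-fold, with the number tested in brackets and lists ordered by median difference. Dotted lines give the share over all genes tested, 35.4% and 34.8%. Sarcomere lists stand at the top and mitosis, collagens and matrix glycoproteins at the bottom.

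Matrix genes were the other large block of fibroblast genes. None of the 19 fibrillar and associated collagens tested was higher in myotubes and 16 were higher in fibroblasts, with a median of -2.62. Leaving out myotube library 2, the one with the most fibroblast markers, moved that median to -3.19 and the count to 17. Col3a1, of loose connective tissue, lay at 158, 975 and 341 CPM in the myotube libraries and 4277, 4178 and 3727 CPM in the fibroblast libraries. Col6a3, a chain of the collagen around muscle fibres, lay at 58.8, 152 and 77.8 CPM in the myotube libraries and 2062, 2109 and 1808 CPM in the fibroblast libraries. Library 2 was the highest of the myotubes in 16 of the 19 collagens, and in these 2 it still lay below every fibroblast library. The call of Col3a1 was lost without myotube library 3 (adjusted p = 0.0693). Col2a1, the collagen of cartilage, lay at 3.87, 7.99 and 10.1 CPM in the myotube libraries and 709, 292 and 696 CPM in the fibroblast libraries, lowest in fibroblast library 2. Col8a1, a short-chain collagen, was not called, at 126, 379 and 178 CPM in myotubes against 233, 205 and 195 CPM in fibroblasts, and was called higher in fibroblasts without myotube library 2 (log2 difference -0.46).

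Genes that process and pack collagen had the same direction, 20 of 24 higher in fibroblasts. Lox, the oxidase that cross-links collagen, lay at 416, 671 and 349.8 CPM in the myotube libraries and 4099, 3544 and 3856 CPM in the fibroblast libraries. Loxl2, its relative, went against the group, at 106, 128 and 81.3 CPM in myotubes against 55.7, 46.8 and 41.3 CPM in fibroblasts. Adamts14, a procollagen protease, did too, at 89.6, 38 and 52.6 CPM in myotubes against 11.9, 12.3 and 11 CPM in fibroblasts. Proteoglycans had 17 of 20 higher in fibroblasts, among them the collagen-binding Fmod, Lum and Bgn. Fmod, fibromodulin, lay at 1.73, 16.1 and 0.631 CPM in myotubes against 742, 468 and 536 CPM in fibroblasts. Lum, lumican, lay at 0.138, 4.72 and 1.18 CPM in myotubes against 239.6, 220 and 281 CPM in fibroblasts. Bgn, biglycan, lay at 765, 1444 and 691 CPM in myotubes against 4819, 4990.2 and 4458 CPM in fibroblasts. All 3 were highest in library 2 among the myotubes. Gpc1 and Gpc4, glypicans of the cell surface, were higher in myotubes, by 0.71 ± 0.11 and 0.94 ± 0.13. Among matrix glycoproteins, 31 of 34 were higher in fibroblasts and none in myotubes. Thbs4, a thrombospondin of tendon, had the largest difference of the list, -9.02 ± 0.58, at 0, 1.45 and 0.0789 CPM in myotubes against 196, 233 and 170.2 CPM in fibroblasts. Fn1, fibronectin, was abundant in both, at 5848, 8245 and 5574 CPM in myotubes against 17315, 15069 and 14473 CPM in fibroblasts. Spp1, osteopontin, was too, at 2735, 2868 and 2749 CPM in myotubes against 6273, 6312 and 7009 CPM in fibroblasts. Postn, periostin, a gene of activated fibroblasts, differed by -0.97 ± 0.36 (adjusted p = 0.0376), and lay at 41.7, 138 and 78.9 CPM in myotubes against 203, 159.6 and 141 CPM in fibroblasts. That call was lost without myotube library 1 or 3 or any 1 of the fibroblast libraries, with DESeq2, with other filters and with more libraries in the fit.

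Proteases and their inhibitors were higher in fibroblasts in 26 of 32. Mmp2 and Mmp14, a gelatinase and its activator, differed by -2.28 ± 0.38 and -1.89 ± 0.22, and the inhibitors Timp1, Timp2 and Timp3 by -1.09 ± 0.14, -1.49 ± 0.18 and -1.51 ± 0.29. Mmp15, a membrane protease, was the 1 member beyond 2-fold in myotubes, at 62.5, 73.7 and 74.7 CPM in myotubes against 7.96, 9.61 and 7.31 CPM in fibroblasts. Of 22 basement membrane genes, 7 were higher in myotubes and 8 in fibroblasts, near the 35.4% and 34.8% over all genes. With library totals these counts were 5 and 8. Lama2, the laminin chain of the muscle fibre, lay at 78.8, 76.3 and 85.3 CPM in myotubes against 24.4, 26.4 and 18.4 CPM in fibroblasts. Lama4, the chain of vessels and nerve, lay at 1.66, 12.8 and 4.81 CPM in myotubes against 105, 102 and 95.3 CPM in fibroblasts. The major collagen IV chains Col4a1 and Col4a2 differed by 0.78 ± 0.17 (called) and 0.33 ± 0.18 (not called). Col25a1, a membrane collagen that motor nerves need, lay at 199.6, 228 and 321 CPM in myotubes against 0.484, 0.459 and 0.693 CPM in fibroblasts. Of 22 integrins, 9 were higher in myotubes and 8 in fibroblasts, read against the same shares. Itga7, the muscle laminin receptor, lay at 499, 452 and 563 CPM in myotubes against 3.77, 6.71 and 6.47 CPM in fibroblasts. Itga11, a collagen receptor of fibroblasts, lay at 2.8, 26.3 and 10.3 CPM in myotubes against 129, 125 and 131 CPM in fibroblasts, a call lost without myotube library 3.

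Genes of the contractile myofibroblast, the cell of scars, were higher in fibroblasts in 17 of 22. Acta2, the smooth muscle actin by which myofibroblasts are usually recognised, was not called, at 1115, 921 and 987 CPM in the myotube libraries and 1119, 765 and 911 CPM in the fibroblast libraries, and the groups overlapped. Tagln and Cnn1, other smooth muscle genes, differed by -1.54 ± 0.29 and -1.62 ± 0.28. Flna and Myh9, filamin A and nonmuscle myosin, differed by -1.63 ± 0.17 and -0.98 ± 0.15. Pdlim7 was the 1 member higher in myotubes, by 0.34 ± 0.10, a call lost when fibroblast library 1 was left out or when libraries were scaled by totals alone.

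In the TGF-beta list 10 of 18 were higher in fibroblasts and 2 in myotubes. The ligands differed little. Tgfb1 was higher in myotubes, at 103, 122 and 100.2 CPM in myotubes against 88, 81.5 and 92.5 CPM in fibroblasts. Tgfb3 was higher in myotubes, at 187, 293 and 296 CPM in myotubes against 180.1, 143 and 162 CPM in fibroblasts. Tgfb2 was not called, at 63.8, 77.5 and 86.4 CPM in myotubes against 89.2, 61.1 and 66.7 CPM in fibroblasts. The call of Tgfb1 was lost in 6 alternative settings, such as scaling by library totals and leaving out myotube library 2, fibroblast library 1 or fibroblast library 2. Tgfbr3, Tgfbr2 and Lrrc32, which bind or carry the ligand, were higher in fibroblasts, with Tgfbr3 (betaglycan) at 9.09, 22.1 and 9.7 CPM in myotubes against 259, 340.3 and 293 CPM in fibroblasts. Lrrc32, a surface carrier of latent TGF-beta, lay at 40.1, 69.2 and 37.8 CPM in myotubes against 494, 548 and 498 CPM in fibroblasts. Tgfbr2, the receptor that binds the ligand, lay at 112, 180.3 and 119.7 CPM in myotubes against 312, 326 and 315 CPM in fibroblasts. Tgfbr1, the signalling partner of Tgfbr2, was not called, at 36.6, 34 and 35.6 CPM in myotubes against 32.5, 29.8 and 32.8 CPM in fibroblasts. In the BMP and activin list, 14 were higher in myotubes and 15 in fibroblasts of 32. The secreted antagonists sorted by cell: Nog (noggin), Fst (follistatin) and Chrd (chordin) were higher in myotubes, by 4.68 ± 0.14, 2.63 ± 0.13 and 1.43 ± 0.23. Grem1 and Chrdl1 were higher in fibroblasts, with differences of -2.47 ± 0.12 and -5.00 ± 0.48. Mstn, myostatin, the muscle growth inhibitor, was low in both, at 5.08, 1.07 and 1.42 CPM in myotubes against 0.0538, 0.306 and 0.115 CPM in fibroblasts.

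In the PDGF family, Pdgfa, Pdgfb and Pdgfd, ligands, were higher in myotubes and both receptors in fibroblasts. Pdgfb lay at 37.3, 20.5 and 26.7 CPM in myotubes against 1.18, 1.05 and 1.27 CPM in fibroblasts. Pdgfd lay at 47.3, 57.4 and 49.8 CPM in myotubes against 14.5, 14.9 and 11.7 CPM in fibroblasts. Pdgfrb, the receptor of pericytes and fibroblasts, lay at 28.1, 116 and 52.6 CPM in myotubes against 577, 576 and 558 CPM in fibroblasts. The ligand Pdgfc was higher in fibroblasts, at 33.3, 43.2 and 28.1 CPM in myotubes against 97, 86.4 and 93 CPM in fibroblasts. Among FGF genes, 10 of 19 were higher in myotubes and 6 in fibroblasts. Fgf21, a hormone that stressed muscle secretes, lay at 98.9, 21 and 29.1 CPM in myotubes against 0.377, 0.284 and 0.346 CPM in fibroblasts, with myotube library 1 the highest. Fgfr2 lay at 2.45, 7.15 and 1.74 CPM in myotubes against 98.9, 79.9 and 88.3 CPM in fibroblasts, and its ligands Fgf7 and Fgf10 were higher in fibroblasts too, with differences of -2.09 ± 0.17 and -2.41 ± 0.32. In the IGF axis, Igf2, the fetal growth factor, lay at 208, 271 and 351 CPM in myotubes against 8.02, 2.69 and 7.39 CPM in fibroblasts. Igf1, the factor of later growth, lay at 5.08, 21.4 and 10.5 CPM in myotubes against 53.7, 35.4 and 43.4 CPM in fibroblasts, so the ligands had opposite directions. The call of Igf1 was lost without myotube library 3 or with no filter. Igfbp5 was higher in myotubes (1.41 ± 0.23) and Igfbp4 in fibroblasts (-2.55 ± 0.19).

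Of 38 Wnt genes tested, 10 were higher in myotubes and 18 in fibroblasts. Wnt4 and Wnt9a, ligands, differed by 6.47 ± 0.35 and 2.12 ± 0.13, and Axin2, a common target of the pathway, lay at 20.4, 21.7 and 28.6 CPM in myotubes against 7.86, 4.17 and 6.81 CPM in fibroblasts. Rspo2 and Lgr5, a ligand and its receptor that raise Wnt signals, were higher in fibroblasts, Rspo2 at 1.45, 5.02 and 2.21 CPM in myotubes against 75, 102 and 90.7 CPM in fibroblasts. Lgr5 lay at 0.242, 1.9 and 0.552 CPM in myotubes against 38.2, 42.4 and 32.2 CPM in fibroblasts. The inhibitors Sfrp2 and Dkk3 differed by -4.42 ± 0.23 and -3.87 ± 0.46. In the Notch list, the ligands Jag2 and Dll1 were higher in myotubes by 6.79 ± 0.20 and 4.12 ± 0.36, and Notch2 was higher in fibroblasts, at -1.96 ± 0.12. Hes6, which promotes myogenic differentiation, lay at 653, 561 and 584 CPM in myotubes against 14.8, 14.2 and 17.4 CPM in fibroblasts.

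Of 31 chemokines and cytokines, 18 passed the filter, and of these 12 were higher in fibroblasts and 2 in myotubes. Members below the filter went both ways in raw counts, for example Cxcl10, Ccl20, Ccl5 and Il6 toward myotubes and Csf3 and Il1a toward fibroblasts. The count of 2 became 5 without myotube library 2, with no filter and with the C57 libraries in the fit, and 1 without myotube library 1, without fibroblast library 2 or with library totals. Csf1, the macrophage growth factor, lay at 518, 323 and 235 CPM in myotubes against 1053, 1315 and 1287 CPM in fibroblasts. Cxcl12, a chemokine that holds leukocytes and precursors, lay at 53.9, 107 and 42.4 CPM in myotubes against 335, 326 and 334 CPM in fibroblasts. Il33, an alarm cytokine, was higher in myotubes, at 7.09, 7.84 and 7.89 CPM in myotubes against 0.753, 0.371 and 0.654 CPM in fibroblasts. Its receptor gene Il1rl1 was among the largest differences toward fibroblasts, at 2.11, 14.4 and 3.08 CPM in myotubes against 435, 615 and 671 CPM in fibroblasts. Of 23 interferon-stimulated genes tested, 20 were higher in fibroblasts and none in myotubes. H2-K1, a class I antigen gene, lay at 47.6, 45.2 and 38 CPM in myotubes against 91.2, 104 and 99.8 CPM in fibroblasts. Of 31 members in the table, 8, among them Isg15 and Mx1, did not pass the filter.

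Corticosteroid genes were examined because the study treated other arms with aldosterone. Nr3c1, the glucocorticoid receptor, lay at 74.5, 94.5 and 84.4 CPM in the myotube libraries and 133, 125 and 128 CPM in the fibroblast libraries, a log2 difference of -0.61 ± 0.10. Nr3c2, the mineralocorticoid receptor, was low and not called, at 3.42, 4.57 and 5.36 CPM in the myotube libraries and 2.91, 3.85 and 1.62 CPM in the fibroblast libraries (log2 difference 0.64 ± 0.33, adjusted p = 0.115). It was called higher in myotubes with no filter and without fibroblast library 2 (log2 difference 0.97). Hsd11b1, which converts inactive glucocorticoid back to the active form, was higher in myotubes, at 6.43, 6.32 and 9.46 CPM in myotubes against 1.08, 1.35 and 0.731 CPM in fibroblasts. Hsd11b2, the enzyme that shields the mineralocorticoid receptor from glucocorticoid, was low and not called, at 0.104, 0.0761 and 1.03 CPM in myotubes against 1.61, 0.918 and 0.962 CPM in fibroblasts, with myotube library 3 the highest of its group. Without that library it was called higher in fibroblasts (log2 difference -3.50), as it was with no filter, with library totals and with all 24 libraries. Targets of these receptors went both ways in steroid-depleted medium: Sgk1, a kinase, lay at 32, 38.7 and 27.6 CPM in myotubes against 168, 258 and 277 CPM in fibroblasts. Tsc22d3, which mediates glucocorticoid effects, lay at 42.4, 39.8 and 43.1 CPM in myotubes against 18.6, 18.9 and 16.8 CPM in fibroblasts. Fkbp5, a receptor chaperone, was not called, at 18.7, 21.5 and 17.2 CPM in myotubes against 22.8, 22.5 and 22.2 CPM in fibroblasts, and was called higher in fibroblasts in 5 other settings, among them library totals (log2 difference -0.44) and without myotube library 2 (-0.31). The list had 7 of 17 higher in myotubes and 3 in fibroblasts, which became 4 and 6 with scaling by totals alone.

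Transcription factors of limb mesenchyme were higher in fibroblasts in 32 of 43 and in myotubes in 5. Prrx1, a factor of limb connective tissue, lay at 54, 138 and 69.2 CPM in the myotube libraries and 668, 677 and 659 CPM in the fibroblast libraries. Pitx1, a factor of the hindlimb, lay at 17.4, 20.1 and 13 CPM in myotubes against 134, 103 and 119 CPM in fibroblasts. Tbx4, which acts below it, lay at 8.81, 14.4 and 7.73 CPM in myotubes against 61.7, 61.3 and 53.7 CPM in fibroblasts. Osr1, a factor of interstitial cells, differed by -3.54 ± 0.25. Barx2, a factor of the myogenic lineage, lay at 7.33, 26.6 and 26.6 CPM in myotubes against 0.108, 0.0655 and 0 CPM in fibroblasts. Hox genes record position along the limb and trunk. Of 32 tested, 13 were higher in myotubes and 10 in fibroblasts, against 35.4% and 34.8% over all genes. Hoxd13, Hoxd12, Hoxd11 and Hoxa13, genes of the distal limb, were higher in fibroblasts, whereas Hoxc13 was higher in myotubes. Hoxd13 lay at 1.28, 9.59 and 4.1 CPM in myotubes against 22.1, 50.6 and 19.6 CPM in fibroblasts. Hoxa13 lay at 2.77, 5.02 and 4.5 CPM in myotubes against 14.2, 14.6 and 10.4 CPM in fibroblasts. Hoxd12 and Hoxd11 differed by -2.66 ± 0.85 and -2.17 ± 0.51. Fibroblast library 2 had the highest Hoxd13 of its group. The call of Hoxd12 was lost without any 1 of the myotube libraries and without fibroblast library 2, where its difference was -1.46, and that of Hoxd13 without myotube library 3 or with no filter. The 5 HoxB genes tested were higher in myotubes, most at low levels, Hoxb7 at 1.07, 2.13 and 1.34 CPM in myotubes against 0.0538, 0.0874 and 0.077 CPM in fibroblasts. Hoxb8 lay at 1.18, 2.44 and 2.05 CPM in myotubes against 0.592, 0.328 and 0.308 CPM in fibroblasts.

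Imprinted genes are expressed from the copy of 1 parent, and the neighbours named here shared a direction within their chromosomal domain. H19 (chromosome 7, 142129262 to 142131886), a noncoding RNA, lay at 17055, 22111 and 27057 CPM in the myotube libraries and 452, 399.7 and 498 CPM in the fibroblast libraries, 49-fold higher in myotubes, next to Igf2. Peg3, Zim1 and Usp29, neighbours on chromosome 7 from 6674268 to 6970218, were all higher in myotubes, by 2.94 ± 0.30, 3.52 ± 0.29 and 5.40 ± 0.37. On chromosome 12, from 109418749 to 109715894, Dlk1, Meg3, Rtl1, Rian and Mirg were all higher in fibroblasts, with Meg3, a noncoding RNA, at 109, 130 and 103 CPM in myotubes against 880.3, 787 and 683 CPM in fibroblasts. Dlk1, an inhibitor of differentiation, lay at 56.8, 35.4 and 15.9 CPM in myotubes against 229.8, 202 and 280.1 CPM in fibroblasts. Mest, on another chromosome, lay at 11, 6.16 and 8.04 CPM in myotubes against 131, 125 and 132 CPM in fibroblasts. Zdbf2, on chromosome 1, lay at 172, 194 and 343 CPM in myotubes against 0.269, 0.415 and 0.385 CPM in fibroblasts. In the aldosterone arm, Dlk1 and Meg3 were called too, but Rian, Mirg and Rtl1 were not, with log2 differences of -0.26, -0.27 and -0.45. Over the list of 25, 10 were higher in myotubes and 12 in fibroblasts, against 35.4% and 34.8% over all genes. Rtl1 overlaps transcripts of the opposite strand, which these libraries cannot separate.

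**Figure D5:**
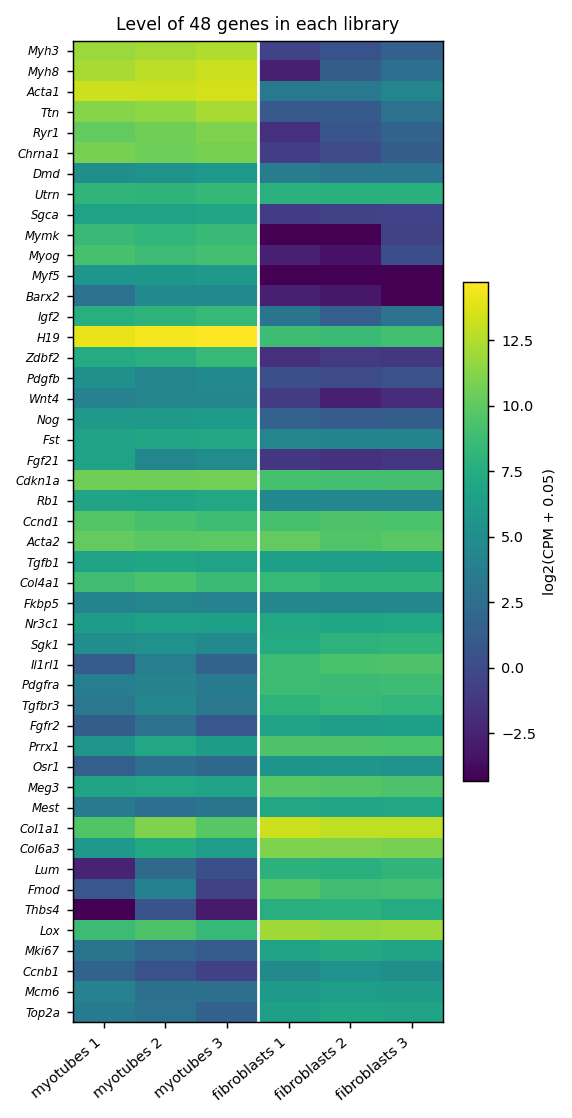
Level of 48 named genes as log2(CPM + 0.05) in each of the 6 libraries, myotubes left of the white line and fibroblasts right of it. Muscle genes in the upper rows are near the bottom of the scale in fibroblasts, and Utrn, Ccnd1, Acta2, Tgfb1 and Fkbp5 have close levels in both.

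The genes of the largest differences were named where either cell type averaged 10 CPM or more and its libraries did not overlap those of the other. Toward myotubes, Art1, a cell surface ADP-ribosyltransferase of muscle, lay at 174, 211 and 244 CPM in myotubes against 0, 0 and 0 CPM in fibroblasts, at least 1836-fold higher. Lrrc2, Fitm1, Pnmt and Scn4b were likewise at 0 in all fibroblast libraries, at least 307-, 279-, 232- and 176-fold higher in myotubes. Fitm1 encodes a fat droplet protein of muscle and Pnmt the enzyme that makes adrenaline. Sypl2, a protein of the triad membrane, lay at 112, 126 and 194 CPM in myotubes against 0.0538, 0.0218 and 0 CPM in fibroblasts. Toward fibroblasts, Egfl6 and Meltf were at 0 in all myotube libraries, at least 195- and 112-fold lower there. Egfl6, an EGF-repeat matrix protein, had 34.8, 25.3 and 50.7 CPM in fibroblasts. Gdf10, a TGF-beta family ligand, lay at 0.138, 0.457 and 0 CPM in myotubes against 77.7, 51.6 and 62.7 CPM in fibroblasts. C4b, a complement component, lay at 0.104, 0.228 and 0.0789 CPM in myotubes against 43.9, 44.7 and 39.7 CPM in fibroblasts. Among protein-coding genes by level per kilobase, Car3, carbonic anhydrase of slow muscle, stood at 3352 in myotubes and 0.882 in fibroblasts. Thbs1, thrombospondin 1, stood at 352 in myotubes and 1988 in fibroblasts, where it was among the 10 highest.

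The same contrast in C57 vehicle cells was the nearest comparison. There, 12743 of 16647 genes were called (76.5%), 38.9% of those tested higher in myotubes and 37.6% in fibroblasts. Of the 11103 genes called in mdx, 11004 were tested in C57. There, 10348 were called in the same direction and 13 in the opposite one. The 10348 were 93.2% of all mdx calls and 81.2% of the C57 calls. The difference between the contrasts, tested over the 12 vehicle libraries, was called for 1 of 17435 genes (0.006%) with edgeR and for 359 with DESeq2, and 2071 genes had an unadjusted p below 0.05 in edgeR. The count depended on single libraries: without mdx myotube library 3 it was 309, and without C57 myotube library 1 it was 38. The 1 gene was Pmaip1, the p53 target NOXA, on chromosome 18 from 66591604 to 66598636. It lay at 127, 127 and 104 CPM in mdx myotubes and 9.75, 8.36 and 10.4 CPM in mdx fibroblasts, and at 110, 104 and 111 CPM in C57 myotubes and 22.5, 21.4 and 21.7 CPM in C57 fibroblasts. The log2 difference was thus 1.35 ± 0.13 larger in mdx (adjusted p = 0.00309), and the fibroblasts of the 2 strains were the groups that stood apart.

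Other differences from C57 did not pass the test. Col1a1 lay at 176, 559 and 447 CPM in C57 myotubes and 6862, 11080 and 9946 CPM in C57 fibroblasts, so its log2 contrast was -4.54 in C57 and -2.74 in mdx (adjusted p of the difference = 0.326). The median over the fibrillar collagen list was -3.92 in C57 and -2.62 in mdx. No member's difference was called. Wnt5a was lower in C57 myotubes than in C57 fibroblasts (log2 -1.16) and not called in mdx, with an adjusted p of 0.0934 for the difference. Tlr4, the receptor of lipopolysaccharide, was counted 0 times in all 6 C57 vehicle libraries and lay at 23.6, 22.2 and 25.5 CPM in myotubes against 29.1, 28.6 and 27.9 CPM in fibroblasts in mdx. A difference from C57 therefore cannot be told apart from differences between the stocks other than Dmd.

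Under aldosterone, 10625 of 15653 genes were called between mdx myotubes and mdx fibroblasts (67.9%), and 9692 were called in the same direction in both arms, 87.3% of the vehicle calls and 91.2% of the aldosterone calls, and 1 in the opposite. The difference between the arms was called for 0 of 16604 genes (0.000%) with edgeR (465 at an unadjusted p below 0.05) and for 7 with DESeq2. Several list medians differed between the treatments: Z-disc and titin genes had 8.12 under aldosterone and 9.56 under vehicle, myosin genes 8.57 and 9.85, and thin filament genes 8.90 and 10.05. The macrophage and leukocyte markers had 2.46 and -0.50, over 7 tested members. The mitosis list had -3.95 and -3.56, and the fibrillar collagens -2.33 and -2.62. These differences between medians were not tested. Log2 values of many sarcomere genes rest on few fibroblast counts. Over the 3 vehicle fibroblast libraries together, Actc1 had 40 counts and Myh7 62, though Acta1 had 1191.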

How the data were processed

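RNA was measured by sequencing of non-directional poly(A) libraries, 24 in all, of which the 6 mdx vehicle libraries are described here. The raw read counts per gene were deposited by the authors, who used featureCounts 1.5.0-p3 and the mouse genome mm39, per the submitters' processing notes. For the aligner and the annotation, nothing is given in the sources used here. A table of FPKM was also deposited by the authors, and was used only as an alternative for the gene pairs. Reads of overlapping genes on opposite strands cannot be told apart in such libraries, and reads of near-identical copies are uncertain.

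Counts were tested in R 4.3.3 with edgeR 4.0.16 (TMM scaling, filterByExpr, robust quasi-likelihood F-test, Benjamini-Hochberg adjustment over all genes kept), which left 15807 of 56748 genes. The test beyond 2-fold used glmTreat with a bound of 1 on the log2 scale. Standard errors are the log2 difference divided by the square root of F. The difference from C57 and from the aldosterone arm was an interaction term over 12 libraries each. DESeq2 1.42.0 was an alternative. The test was checked on simulated counts in which few genes changed, as many up as down. In these data 70.2% of genes were called, so that check does not cover the scaling used here. With 3 libraries a group, all p-values rest on few samples, and the labels do not say whether cultures came from separate animals. No 2 libraries were identical.

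Genes were named by a rule: the largest differences, the highest levels, and in each list the smallest p, the largest differences, the highest levels and every call against the majority. A further 40 genes named with values, such as Cacna1s, Cdk1, Musk and Pmaip1, were chosen outside it after their values were seen. The contrast, the lists and the markers were chosen with earlier results of these data known. Lists were described by counts and medians only. Same-numbered myotube and fibroblast libraries did not deviate together (r = -0.03, 0.08 and 0.00 over genes), and the numbers were not used as pairs in the main test. Xist and Y-linked transcripts did match by number in the mdx libraries. The labels do not say whether same-numbered libraries share a preparation, and the correlations cannot settle it. Promoter sequences came from RefSeq on GRCm38.p6, a build other than that of the counts, so they were matched by symbol only.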

Additional observations from a re-analysis of the deposited data

Results flagged for a closer look

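Pmaip1 was the 1 gene whose contrast between myotubes and fibroblasts differed between mdx and C57 vehicle cells, by an interaction term over 12 libraries. The log2 contrast was 1.35 ± 0.13 larger in mdx (edgeR quasi-likelihood test, adjusted p = 0.00309). Levels in fibroblasts, at 9.75, 8.36 and 10.4 CPM in mdx and 22.5, 21.4 and 21.7 CPM in C57, did not overlap, while those in myotubes did. The call was lost with the replicate number as a block. The cause was not tested.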

How the results depend on the processing

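The counts of called genes for the mdx vehicle contrast stayed within 1.5 times of those reported under all alternatives run. Leaving out 1 library at a time gave 9925 to 11088 called genes, 5065 to 5635 higher in myotubes and 4860 to 5453 higher in fibroblasts. Beyond 2-fold it gave 3556 to 4372 in all, 1958 to 2271 higher in myotubes and 1598 to 2101 in fibroblasts. With the replicate number as a block, 10440 genes were called in place of 11103 and 3874 beyond 2-fold in place of 4063. The share of calls higher in myotubes was 39.4% with library totals and 45.1% with upper quartile scaling. The difference from C57 was the least stable: 1 gene as reported, 82 with no filter on low counts, 359 with DESeq2, 41 with all 24 libraries in the fit, 0 with the replicate block, and 1 to 309 when 1 library was left out, 309 without mdx myotube library 3 and 38 without C57 myotube library 1. The difference from the aldosterone arm was 0 genes as reported, 7 with DESeq2 and 0 with the block. The cause of these changes was not tested. Depth limits genes near 3 counts per library. Of the values of named genes under these settings, 56 fell below the threshold, 16 passed it newly and 18 changed sign, all of the last in genes that were not called. With library totals the log2 difference was -0.10 for Acta2, -0.11 for Col8a1, -0.0493 for Eef1a1, -0.0625 for Fabp5, -0.15 for Tgfb2, -0.0514 for Tgfbr1 and -0.18 for Wnt5a. With upper quartile scaling it was -0.0361 for Tgfb2 and -0.0702 for Wnt5a, and with the replicate block -0.0443 for Col8a1. Leaving out 1 library gave a range of -0.0218 to 0.26 for Acta2, -0.26 to 0.13 for Ccnd1, -0.46 to 0.41 for Col8a1 (called without myotube library 2), -0.35 to 0.15 for Synm, -0.05 to 0.24 for Tgfb2 and -0.15 to 0.14 for Wnt5a. The replicate block also ended the calls of Postn (adjusted p = 0.0652) and Tlr4 (adjusted p = 0.0698), and took the ribosomal genes higher in myotubes from 14 to 8. Tlr4, called higher in fibroblasts in mdx, also lost its call with no filter and with DESeq2. The same held without myotube library 1 or 2 and without any 1 of the fibroblast libraries.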

Other observations

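Some genes known from other tissues were higher in the mdx myotubes. Prox1, a transcription factor of lymphatic endothelium that muscle also expresses, lay at 39.7, 31.7 and 44.9 CPM in myotubes against 0.431, 0.262 and 0.192 CPM in fibroblasts. Emcn, a surface protein of veins and capillaries, lay at 17.7, 17 and 21.5 CPM in myotubes against 0, 0 and 0 CPM in fibroblasts. Trp63, the p63 factor of epithelial stem cells, lay at 42.4, 44.4 and 58.8 CPM in myotubes against 3.34, 2.38 and 2.5 CPM in fibroblasts, and the keratin gene Krt18 lay at 12.8, 9.44 and 10 CPM in myotubes against 0.915, 0.459 and 0.808 CPM in fibroblasts. All 4 were higher in myotubes, while Kdr was not called, at 0.864, 0.304 and 0.552 CPM in myotubes against 0.323, 0.612 and 0.192 CPM in fibroblasts. Trp63 and Krt18 were the 2 of 8 epithelial markers that passed the filter. The others, Krt5, Krt14, Krt8, Krt15, Epcam and Cdh1, lay at no more than 0.394 CPM in any library. Sost, the bone inhibitor of Wnt signals, was higher in myotubes, at 19.2, 15.1 and 17 CPM in myotubes against 0, 0 and 0.154 CPM in fibroblasts, although most bone markers tested were higher in fibroblasts. Macrophage transcripts were uneven among the myotubes: Lyz2, lysozyme, lay at 1.42, 25.9 and 9.86 CPM in myotubes against 1.13, 3.28 and 1.92 CPM in fibroblasts, highest in library 2. The call of Lyz2 was lost without myotube library 2, where its log2 difference was 1.28 in place of 2.44, and in 7 other settings. In the C57 vehicle cells, Ddx3y lay at 88.4, 0.105 and 0 CPM in myotubes and 90.5, 0.0659 and 30.9 CPM in fibroblasts, so the third libraries of the cell types differed. C57 fibroblast library 3 also held Xist, at 870 CPM, and thus both kinds of transcript, whereas C57 myotube library 3 held Xist alone, at 781 CPM. The numbers of the mdx libraries agreed between cell types in this respect, although same-numbered libraries did not deviate together over all genes.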
